A study of Mus musculus with 16 samples.

Results

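Fatty acid synthesis, desaturation and elongation were followed through 10 genes: Acly, Acaca and Fasn of cytosolic synthesis, the elongases Elovl5 and Elovl6, the desaturases Scd1, Scd2, Fads1 and Fads2, and the regulator Srebf1. The genes were chosen by name, with earlier results of these data known, and matched to Ensembl identifiers. All 10 were found among the 55414 identifiers of the deposited table. All passed the minimum for testing (a mean of 10 counts), as 10 of 18878. RNA came from 16 libraries of sorted leukaemia-propagating cells (LPC), taken from mice that model pro-B acute lymphoblastic leukaemia of infants. Every library, from either niche, came from cells with the Kmt2a-AFF1 fusion and overexpressed miR-128a, so the comparisons were of niche and of LPC type, never of genotype. The niches were bone marrow (BM) and the central nervous system (CNS). The LPC types were LSK (lineage-negative, Sca1+, cKit+, IL7R+) and LK (lineage-negative, Sca1-, cKit+; the labels write LK/CLP). Each of the 4 combinations of niche and LPC type held 4 libraries. The age and number of mice and the promoter that drives the microRNA are not given in the sources used here. Nothing in the labels says that libraries of a group came from separate animals, so p-values measure the spread between these libraries.

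Cells make fatty acids from citrate. ATP citrate lyase (Acly) releases acetyl-CoA in the cytosol, acetyl-CoA carboxylase (Acaca) turns it into malonyl-CoA, and fatty acid synthase (Fasn) condenses these units into palmitate. Elovl6 lengthens palmitate to stearate, and the stearoyl-CoA desaturases (Scd1 and Scd2 in most tissues) place the double bond that makes oleate. Fads2 and Fads1 desaturate, and Elovl5 lengthens, the polyunsaturated chains derived from dietary fat. Srebf1 encodes SREBP-1, a membrane-bound transcription factor that is cleaved to activate most of these genes. Cerebrospinal fluid carries far less lipid than blood plasma, and Scd2 is the main stearoyl-CoA desaturase of the mouse brain.

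Promoter sequences from RefSeq (build GRCm38.p6) were listed for 7 of the 10 genes. The 250 bases before the listed start are shown 5′ to 3′ for the synthase, for the regulator and for the elongases whose ratio is described further on. They lie at chr11:120824548-120824797 (minus strand) for Fasn, chr11:60210472-60210721 (minus strand) for the most downstream of the 3 listed starts of Srebf1, chr3:129532136-129532385 (plus strand) for Elovl6 and chr9:77917115-77917364 (plus strand) for Elovl5. Capitals mark any of 4 motifs, on either strand: TCACCC, a core of sterol regulatory elements; CCAAT; the GC box GGGCGG; and the E-box CACGTG. The motifs were chosen after the sequences were seen.
Fasn: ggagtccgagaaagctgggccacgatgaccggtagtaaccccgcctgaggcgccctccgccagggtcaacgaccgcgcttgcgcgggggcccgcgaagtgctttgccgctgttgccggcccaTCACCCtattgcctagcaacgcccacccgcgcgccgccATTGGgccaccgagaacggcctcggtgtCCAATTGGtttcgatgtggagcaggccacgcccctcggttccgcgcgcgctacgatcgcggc
Srebf1: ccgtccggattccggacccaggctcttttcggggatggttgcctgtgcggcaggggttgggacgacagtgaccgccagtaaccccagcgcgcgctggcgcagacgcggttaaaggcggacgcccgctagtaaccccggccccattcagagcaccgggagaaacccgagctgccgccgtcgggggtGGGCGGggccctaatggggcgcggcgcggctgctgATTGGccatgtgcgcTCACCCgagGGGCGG
Elovl6: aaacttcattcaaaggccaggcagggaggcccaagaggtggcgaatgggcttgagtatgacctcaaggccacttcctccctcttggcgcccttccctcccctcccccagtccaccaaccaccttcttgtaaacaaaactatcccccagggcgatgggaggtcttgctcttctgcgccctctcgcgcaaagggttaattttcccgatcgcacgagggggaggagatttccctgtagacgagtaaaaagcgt
Elovl5: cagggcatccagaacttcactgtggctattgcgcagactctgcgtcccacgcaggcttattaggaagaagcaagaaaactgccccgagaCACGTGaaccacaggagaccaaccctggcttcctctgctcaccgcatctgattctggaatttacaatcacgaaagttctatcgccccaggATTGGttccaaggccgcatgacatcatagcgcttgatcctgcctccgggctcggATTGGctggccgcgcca

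Fasn held 1 match to TCACCC and 3 to CCAAT, 2 of which overlap on opposite strands. The Srebf1 window held 1 match to TCACCC, 1 to CCAAT and 2 to GGGCGG. The other 2 listed windows of Srebf1 held no TCACCC, nor did those of Fads2, Acly and Acaca, so that 2 of the 9 windows listed for these genes held it. The Elovl5 window held 2 matches to CCAAT and 1 to CACGTG, and the Elovl6 window held none of the 4. Among 32851 listed promoters of the same length, 13.8% held TCACCC, 33.8% CCAAT, 32.7% GGGCGG and 6.0% CACGTG. A match is a description of these letters and was not tied to any measurement.

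The libraries held between 19.2 and 29.2 M (mega) counts, with 8.60 to 13.6 M in genes that encode proteins. Levels are given as counts-per-million (CPM) on library sizes scaled with TMM factors. The sorted cells carried Kit (116 to 168 CPM), Ptprc (348 to 469) and Il7r (59.5 to 103). The B-lineage genes given here were near 0: the medians over 16 libraries of Cd79a, Cd79b, Vpreb1, Igll1, Ebf1 and Pax5 lay between 0.115 (Igll1) and 0.962 CPM (Cd79a). The labels name a pro-B leukaemia, but these cells were sorted as lineage-negative. Other cells of the leukaemia were not measured. Dntt, a lymphoid progenitor gene, ran from 10.5 to 248 CPM. Olfactory and vomeronasal receptor genes, which most tissues do not use, served as an index of background. Their summed level was 365 ± 142 CPM in BM LSK, 538 ± 84.6 in CNS LSK, 260.1 ± 41.1 in BM LK and 380.3 ± 137 in CNS LK (SD, n = 4 each).

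All of the pathway's main enzymes were detected, and 1 stearoyl-CoA desaturase outweighed the other. Per kb of exon, which allows genes to be compared, Scd2 had the highest level (median 51.6 CPM per kb over 16 libraries, from 38.4 to 64.7), above 97.6% of 13198 protein-coding genes tested. Acly (28.1, from 26.6 to 31.0) and Fasn (25.7, from 24.5 to 30.6) followed and overlapped each other. Elovl5 (16.5, from 14.8 to 18.4) and Fads2 (11.3, from 9.78 to 12.9) came next without overlap. Srebf1 (6.57), Acaca (6.03), Elovl6 (4.81) and Fads1 (4.23) formed a run in which each overlapped its neighbour. Scd1 was lowest by far, at 0.227 CPM per kb (from 0.118 to 0.346), above 18.9% of those genes, on 13 to 42 counts per library. The lengths cover all annotated exons of a gene, and the order depends on them. In CPM alone, Scd2 (median 282) and Fasn (281) were nearly level, and Acaca (103) stood above Elovl5 (58.1).

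**Figure D1:**
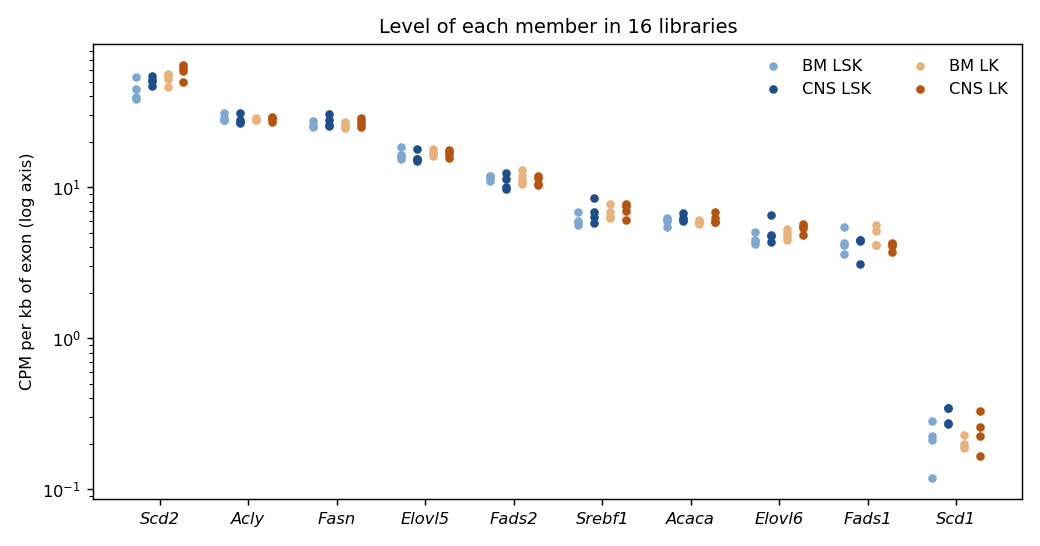
Level of each gene in every library, in CPM per kb of exon on a log axis; each point is 1 of 16 libraries, coloured by group, and genes are ordered by their median. Scd2 stands above all others (38.4 to 64.7), and Scd1 lies below all others (0.118 to 0.346).

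The background index predicted between 14.6% and 37.8% of the Scd1 counts of a library, against at most 3.44% for any of the other 9 genes. Of the 50-base words in Scd1 transcripts, 4.56% also occur in another Scd gene (GENCODE M21), and 2.66% of the words of Scd2 (145 words) occur in Scd1. Scd2 had 3949 to 8526 counts per library, so reads from shared stretches could make up a large part of the 13 to 42 counts of Scd1. How such reads were counted is not given in the sources used here, and the level of Scd1 is uncertain for that reason. Fads1, Fads2, Elovl5 and Elovl6 shared 0 such words with their relatives in the set. The most variable gene from library to library was Scd1, whose highest level was 2.93 times its lowest, followed by Fads1 (1.81 times) and Scd2 (1.68 times). Acly was the most even (1.16 times).

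The series asked how leukaemia cells differ between niches. Over both LPC types, edgeR's quasi-likelihood test called 0 of the 10 genes at an adjusted p under 0.05 with Benjamini-Hochberg adjustment over all 18878 genes, of which it called 0%. DESeq2 called 40 of 18877 genes and 0 of the 10. At an unadjusted p under 0.05 in edgeR's test there were 3 of 10 (Scd2, Elovl6 and Scd1), each with the higher level in the CNS. The share of all genes was 9.15% in either direction and 6.55% with the higher level in the CNS. Scd1 may hold reads shared with Scd2, so Scd1 and Scd2 may not be separate results. The median log2 difference (CNS minus BM) of the 10 genes was 0.07, and that of all genes tested was -4.27e-07. In bulk RNA, fewer cells that express a gene and less RNA per cell cannot be told apart.

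BM and CNS libraries that share a stem in the labels' descriptions were also set side by side, 8 stems in all; what a stem stands for is not given. Scd2, Fasn and Acaca had the higher level in the CNS library in 8 of 8 stems, 3 of 10 genes against 1.49% of all genes tested. Scd1 and Elovl6 did so in 7 of 8, so that 5 of 10 genes were higher in at least 7 stems, against 7.66% of all genes. The smallest log2 differences of a stem were 0.0073 for Scd2, 0.0065 for Fasn and 0.0090 for Acaca. The genes were chosen with earlier results of these data known, so these shares are a description and no test. The limit on Scd1 given above holds here too. Elovl5 went the other way, with the lower level on the CNS side in 7 of 8 stems, as 6.64% of all genes had. Srebf1 was higher in 6 of 8, Acly in 5, and Fads1 and Fads2 in 4. With the stem as a block the test called 126 genes (0.667%) between niches, and again 0 of these 10.

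**Figure D2:**
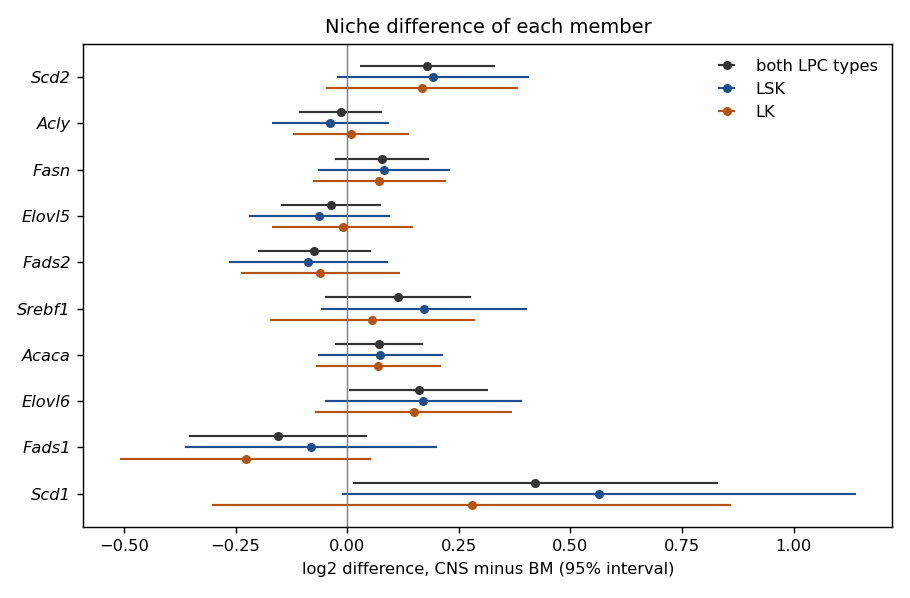
Log2 difference between CNS and BM for each gene, with its 95% interval from edgeR's test, over both LPC types and within each; genes are in order of level. The intervals over both LPC types exclude 0 for Scd2, Elovl6 and Scd1 only, before adjustment over genes.

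Among the synthesis enzymes the differences were small. Fasn stood at 275, 299, 279 and 278 CPM in BM LSK and at 276, 306, 281 and 335 in CNS LSK. In LK it stood at 274, 295, 281 and 269 in BM and 301, 315, 287 and 273 in the CNS. The groups overlapped in both LPC types, and CNS LSK 4 was the highest library. The log2 difference over both was 0.08 (95% interval -0.03 to 0.18; edgeR adjusted p 0.689), and per stem it ran from 0.0065 to 0.27. Acaca stood at 101.3 ± 5.59 against 107 ± 5.95 CPM in LSK and 100.5 ± 3.01 against 105 ± 7.66 in LK (BM against CNS; SD, n = 4). Its log2 difference was 0.07 (-0.03 to 0.17; edgeR adjusted p 0.695), and 0.05 without CNS LK 2. Acly stood at 152 ± 7.93 against 148 ± 10.6 CPM in LSK and 149 ± 1.98 against 149.5 ± 4.42 in LK. Its log2 difference was -0.01 (-0.11 to 0.08; edgeR adjusted p 0.970).

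The elongases had log2 differences of opposite sign, neither past the threshold. Elovl6 stood at 26.8, 28.2, 28.8 and 32.5 CPM in BM LSK and at 30.6, 30.8, 27.9 and 41.8 in CNS LSK. In LK it stood at 30.2, 28.5, 32.1 and 33.9 in BM and 31.1, 35.3, 34.7 and 36.9 in the CNS. The groups overlapped, with CNS LSK 4 apart at the top. The log2 difference was 0.16 ± 0.075 (SE; edgeR unadjusted p 0.0451, adjusted 0.535), and 0.10 without CNS LSK 4. With the stem block it was 0.15 ± 0.051 (edgeR unadjusted p 0.00716, adjusted 0.201). Elovl5, which lengthens polyunsaturated chains, stood at 58.4 ± 4.58 against 56.0 ± 4.96 CPM in LSK and 59.4 ± 2.95 against 59.0 ± 3.41 in LK. Its log2 difference was -0.04 (-0.15 to 0.08; edgeR adjusted p 0.911), and -0.0092 without BM LSK 4.

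Within a library, the ratio of Elovl6 to Elovl5 counts separated the niches in both LPC types. The ratio was 0.463, 0.496, 0.532 and 0.501 in BM LSK and 0.566, 0.565, 0.534 and 0.661 in CNS LSK. In LK it was 0.538, 0.483, 0.545 and 0.534 in BM and 0.570, 0.607, 0.573 and 0.590 in the CNS. Every CNS library lay above every BM library of its LPC type, and the ratio was higher in the CNS in 8 of 8 stems. In LSK the groups nearly touched, with CNS LSK 3 at 0.534 and BM LSK 3 at 0.532. The mean log2 ratio differed by 0.19 between niches, against a spread of 0.090 within groups (SD); it stayed between 0.16 and 0.21 when any 1 library was left out. Among the 45 pairs of the 10 genes, each written with the higher mean ratio in the CNS, 9 were higher there in 8 of 8 stems. The ratio of Elovl6 to Elovl5 was the only one of the 45 whose groups did not overlap in both LPC types. It was picked after all pairs were seen, so it is given with no test. Of all genes tested, 0.143% separated the niches in this way in their ratio to Elovl5, and 0.461% in the ratio of Elovl6 to them. These shares do not allow for the choice of 1 pair from 45. The share of all gene pairs with a higher ratio in 8 of 8 stems was not computed.

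**Figure D3:**
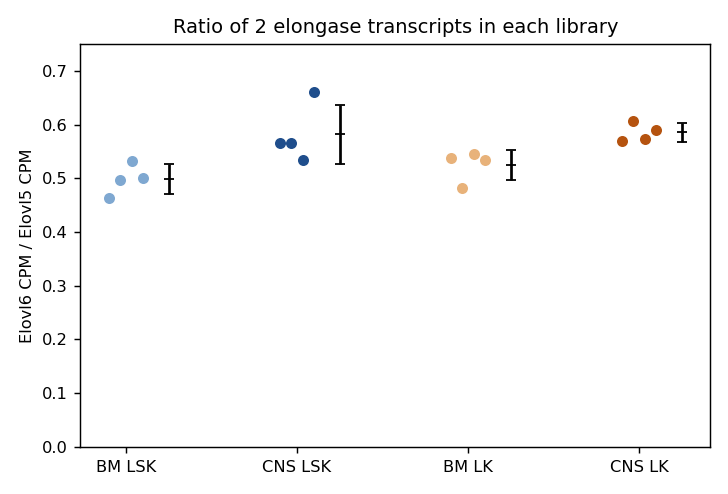
Ratio of Elovl6 to Elovl5 counts in each library, by group; bars beside the points give the mean and SD of 4 libraries. CNS LSK (0.534 to 0.661) lies above BM LSK (0.463 to 0.532), and CNS LK (0.570 to 0.607) above BM LK (0.483 to 0.545).

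Of the desaturases, Scd2 and Scd1 had log2 differences above 0 and Fads1 and Fads2 below 0, none past the threshold. Scd2 stood at 209.9, 294, 217 and 245 CPM in BM LSK and at 254, 296, 281 and 274 in CNS LSK. In LK it stood at 306, 283, 304 and 251 in BM and 354, 323, 337 and 272 in the CNS. BM LSK 2 (294) and CNS LK 4 (272) made the groups overlap. The log2 difference was 0.18 ± 0.073 (SE; edgeR unadjusted p 0.0229, adjusted 0.482). With the stem block it was 0.18 ± 0.043 (edgeR unadjusted p 0.000442), the smallest of the 10 genes, and the adjusted p of 0.0600 still missed the threshold. Per stem the difference ran from 0.0073 (LSK 2) to 0.37 (LSK 3).

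Scd1 stood at 1.38, 1.09, 0.578 and 1.04 CPM in BM LSK and at 1.69, 1.69, 1.34 and 1.31 in CNS LSK. In LK it stood at 0.968, 0.930, 0.910 and 1.12 in BM and 1.60, 1.1004, 0.817 and 1.27 in the CNS. The groups overlapped, and BM LSK 3, with 13 counts, was the lowest library. The log2 difference was 0.42 ± 0.20 (SE; edgeR unadjusted p 0.0440, adjusted 0.532), and within LSK it was 0.56, or 0.37 without BM LSK 3. The background index was also higher in the CNS groups, and with it as a covariate the difference over both LPC types was 0.21.

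Fads1, which completes the desaturation of arachidonate precursors, stood at 26.2, 20.4, 20.01 and 17.3 CPM in BM LSK and at 21.6, 15.0, 21.6 and 21.1 in CNS LSK. In LK it stood at 27.1, 19.96, 24.6 and 19.8 in BM and 19.6, 20.4, 17.8 and 20.3 in the CNS. The highest libraries were of BM (BM LK 1 and BM LSK 1) and the lowest was CNS LSK 2. The log2 difference was -0.15 (-0.35 to 0.05; edgeR adjusted p 0.667), and -0.09 without BM LSK 1. Fads2, the enzyme of the earlier step, stood at 37.9 ± 1.38 against 35.7 ± 3.96 CPM in LSK and 38.0 ± 3.60 against 36.4 ± 2.54 in LK. Its log2 difference was -0.07 (-0.20 to 0.05; edgeR adjusted p 0.781), and -0.04 without BM LK 3.

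The regulator Srebf1 stood at 31.6, 33.1, 33.7 and 38.4 CPM in BM LSK and at 32.6, 35.6, 38.4 and 47.8 in CNS LSK. In LK it stood at 34.9, 38.4, 43.7 and 35.6 in BM and 43.6, 42.1, 39.2 and 33.9 in the CNS. All 4 LSK stems had the higher level in the CNS library, against 2 of 4 LK stems, and the groups overlapped in both. The log2 difference over both LPC types was 0.11 (-0.05 to 0.28; edgeR adjusted p 0.722), and 0.06 without CNS LSK 4. The niche difference in LSK minus that in LK was 0.12 (95% interval -0.21 to 0.44; edgeR unadjusted p 0.467). Counts per gene do not separate the transcripts that start at the 3 listed sites.

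**Figure D4:**
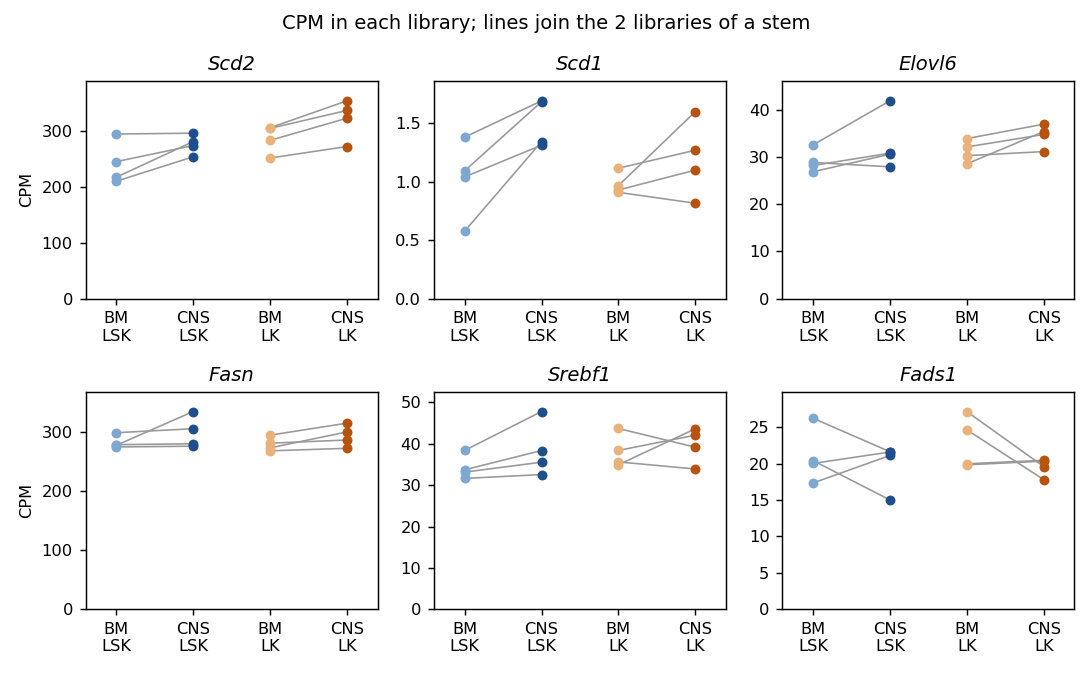
CPM of 6 of the genes in each library, with a line joining the BM and CNS library of a stem; each panel's axis starts at 0. Scd2 and Fasn lines slope up in 8 of 8 stems, Scd1 and Elovl6 in 7 of 8, Srebf1 in 6 and Fads1 in 4.

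Markers of other cells were followed beside these values, since brain tissue and fat also express Scd and Elovl genes. The summed level of 13 neural and glial markers was 107 to 116 CPM in BM LSK, 105 to 118 in CNS LSK, 106 to 123 in BM LK and 105 to 119.8 in CNS LK. Mbp, Cnp and Tubb3, which leukocytes also use, made up most of it, so the sum says little of the others. Mog did not exceed 0.224 CPM, Gfap 0.843 and Snap25 0.716 in any library. Slc1a2 reached 2.82 CPM, with means of 0.674 in BM LSK, 2.07 in CNS LSK, 0.519 in BM LK and 1.11 in CNS LK. Snap25 means were 0.172 against 0.544 in LSK and 0.155 against 0.355 in LK (BM against CNS). Of the 13, only Tubb3 and Mag had lower means in the CNS in both LPC types. The sum of 7 adipocyte markers was 1.29 to 3.35 CPM in BM LSK, 2.76 to 4.41 in CNS LSK, 1.04 to 2.01 in BM LK and 0.846 to 3.74 in CNS LK, with Adipoq at most 0.174. The sum of 10 myeloid markers was 1.96 to 4.06, 3.26 to 6.45, 2.07 to 3.35 and 1.95 to 7.22 CPM in the same order, and that of 6 microglial markers stayed between 3.26 and 5.62 in all groups. The sum of 9 meningeal and endothelial markers was 66.3 to 105 CPM in BM LSK and 62.4 to 92.7 in CNS LSK, and 84.5 to 104 in BM LK and 76.1 to 98.9 in CNS LK, nearly all of it Pecam1. Sums of 7 erythroid markers (1.56 to 3.99 CPM) and of 8 T and NK markers (10.8 to 23.8) had overlapping ranges in all groups. The part of these markers in the values of the 10 genes was not tested.

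Within LSK cells and within LK cells the test between niches again called 0 of 10 genes, as it did 0 of all genes in each; at an unadjusted p under 0.05 there were 0 of 10 in either, against 5.74% of all genes in LSK and 3.99% in LK. The 4 BM and 4 CNS libraries were without overlap for 0 of 10 genes in LSK (3.68% of all genes) and 0 of 10 in LK (2.18%). With the stem block it called 26 genes in LSK (0.138%) and 12 in LK (0.0636%), and none of the 10. The interaction of niche and LPC type called 0 of 10 (0 at an unadjusted p under 0.05, against 1.49% of all genes). For Scd2 the niche difference in LSK minus that in LK was 0.03, with an interval of -0.28 to 0.33. A difference between LPC types anywhere in that range was not excluded. For Fasn the interval was -0.20 to 0.22 and for Elovl6 -0.29 to 0.33.

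The series also compared the LPC types. The smallest unadjusted p of the 10 genes here was that of Scd2. Its mean level was 242 ± 38.3 CPM in BM LSK and 286 ± 25.3 in BM LK, then 276 ± 17.5 in CNS LSK and 321 ± 35.2 in CNS LK (SD, n = 4 each). The log2 difference (LSK minus LK, over both niches) was -0.23 ± 0.073 (SE; edgeR unadjusted p 0.00490, adjusted 0.201). The groups overlapped in both niches, through BM LSK 2 in BM and CNS LK 4 in the CNS. Of all genes, 45 (0.238%) were called between LPC types, 43 higher and 2 lower in LSK, and 0 of these 10; at an unadjusted p under 0.05 it was 1 of 10 against 12.1% (4.59% for lower levels in LSK). With the title number as a block the test called 162 genes (0.858%) and 0 of these 10. The BM and CNS library of a stem fall on the same side of this comparison. Both fits counted them as separate libraries, so the SE, p-values and counts here do not allow for a shared stem. Their deviations from the group means correlated at -0.056 to 0.30 over genes with a mean of at least 10 counts. At a mean of at least 50 counts they correlated at 0.34 to 0.62. When every gene with a count was tested, Scd2 passed (-0.29, edgeR adjusted p 0.0133). The median log2 difference of the 53366 genes fitted there, most of them outside the main fit, was 0.14. Acly, Acaca and Fasn were lower there than in the main fit, at -0.047, -0.047 and -0.036.

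The 4 LSK and 4 LK libraries were without overlap for 0 of 10 genes in BM (3.13% of all genes) and 0 of 10 in the CNS (3.65%). None of the other 9 genes reached an unadjusted p of 0.05 between LPC types. The nearest in size were Scd1 (0.20, interval -0.21 to 0.61; -0.0032 with the background index as a covariate), Srebf1 (-0.10, -0.26 to 0.07) and Elovl6 (-0.09, -0.24 to 0.07). Acly, Acaca and Fasn differed by 0.01, 0.01 and 0.02 on the log2 scale, with intervals that all lay within -0.09 and 0.13. Relative to Fasn in the same library, Scd2 ran from 0.763 to 0.984 in BM LSK and from 0.936 to 1.12 in BM LK, and from 0.817 to 1.00 in CNS LSK and 0.997 to 1.18 in CNS LK. That ratio also overlapped in both niches, narrowly in the CNS.

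The wider pathway was followed through 57 further genes, of which 51 were tested. None passed an adjusted p of 0.05 in any of the 5 comparisons, with or without the block. Between niches 4 of 51 had an unadjusted p under 0.05, 2 in each direction, against 9.15% of all genes, and their median log2 difference was -0.03. Nr1h3, which encodes the sterol sensor LXR alpha, had the smallest unadjusted p (1.12 ± 0.38; edgeR p 0.00911, adjusted 0.393). Its level was 0.262 ± 0.073 CPM in BM LSK and 0.644 ± 0.40 in CNS LSK, and 0.288 ± 0.15 and 0.537 ± 0.38 in the LK groups, and the background index predicted from 21.0% to 122% of its counts. Acsl1, which activates long-chain fatty acids to acyl-CoA, was next (-0.23; edgeR p 0.0183, adjusted 0.461), at 7.08 ± 0.58 against 5.56 ± 0.31 CPM in LSK and 6.41 ± 0.92 against 5.93 ± 0.67 in LK. Me1, the malic enzyme that supplies NADPH, followed (0.78; edgeR p 0.0442, adjusted 0.532) on under 1 CPM in every library, with 18.9% to 179% of its counts predicted as background.

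6 of the 7 tested genes of the elongation cycle outside the set had a log2 difference below 0 between niches, against 9439 of 18878 genes. They ran from -0.081 to 0.018, and none reached an unadjusted p of 0.05 in edgeR's test. Within LSK 3 of the 7 were below 0, and within LK 5 of the 7. Of the 10 genes of SREBP processing and lipogenic transcription, Srebf2, the relative of Srebf1 that drives cholesterol synthesis, stood at 155 ± 9.91 against 147 ± 16.04 CPM in LSK and 155 ± 10.5 against 143 ± 5.15 in LK. Scap, the escort of both SREBPs, stood at 37.7 ± 3.46 against 37.3 ± 4.17 and 40.6 ± 2.72 against 40.3 ± 4.19. Between LPC types, the smallest unadjusted p values belonged to Ndufab1, the mitochondrial acyl carrier protein (-0.19; edgeR p 0.00901, adjusted 0.251), Mbtps1, the protease that makes the opening cut in SREBPs (-0.12; 0.0154, adjusted 0.296), and Lpcat3, which places polyunsaturated chains in phospholipids (-0.18; 0.0501, adjusted 0.413). All 3 had the lower level in LSK.

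**Figure D5:**
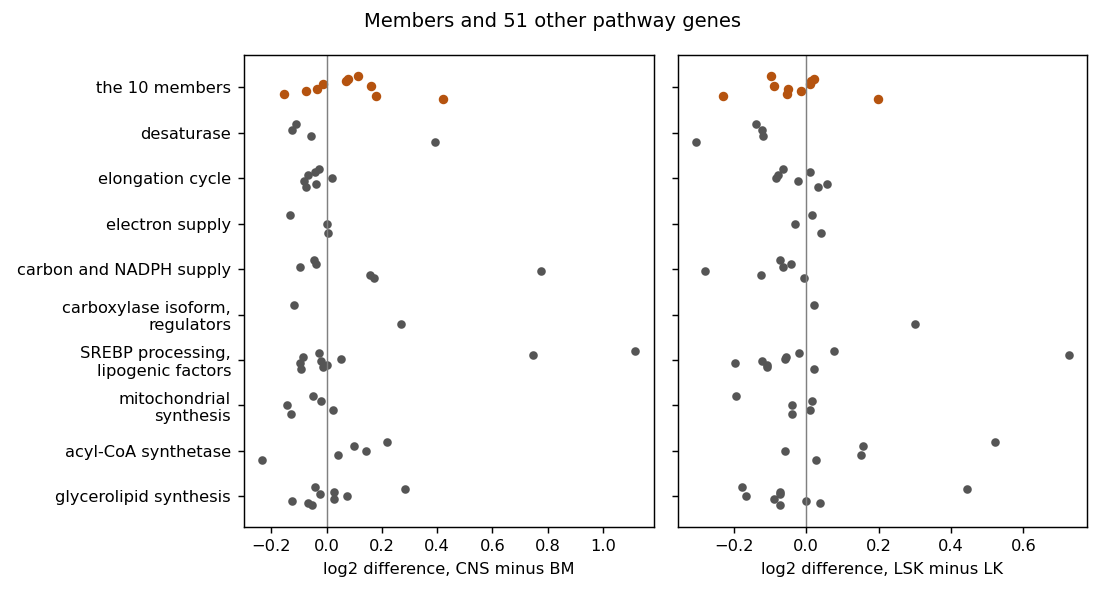
Log2 differences of the 10 genes (top) and of 51 further pathway genes by role, between niches (left) and between LPC types (right); each point is a gene. Between niches the points above 0.5 are Nr1h3, Me1 and Mlxipl, all at a mean under 1 CPM in every group.

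By Pearson's r of log2 CPM over the 16 libraries, which share stems, the genes most like Scd2 among 11639 were Mylip (0.888), a ubiquitin ligase that removes the LDL receptor, Abcg1 (0.879), a sterol exporter, and Prkch (0.867), a protein kinase. Those most like Srebf1 were Ccdc97 (0.894), Adnp (0.890) and Unc13d (0.872). Those most like Scd1 were Tmem72 (0.835), Sfi1 (0.808) and Tmem267 (0.778). These are the highest of all genes searched and are given as a description.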

How the data were processed

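Values were counts, as whole numbers, of 55414 Ensembl genes in 16 libraries, in 1 table deposited by the authors. Per the labels' protocols, total RNA of sorted cells went into strand-aware libraries suited to small inputs. The submitters' processing notes name the build GRCm39 and the tool DESeq2, with no role; the aligner, the counter, the annotation and the use of strand or molecular identifiers are not given in the sources used here. The file's name calls the values normalised, but size factors ran from 0.804 to 1.30, so they were treated as raw counts. Where counting could split reads between paralogs or overlapping genes, values are uncertain; intervals and spreads do not cover that. Replicate libraries differed by more than sampling noise (a chi-square of 10.6 to 41.6 for each degree of freedom). No column of per-sample values was left unused.

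Of the identifiers, 52081 had a symbol. Exon lengths and gene types came from GENCODE M21 (GRCm38), so no gene coordinates are given except those of the promoter table. Genes with a mean of at least 10 counts (18878) entered TMM scaling and a model of 4 means (edgeR 4.0.16 under R 4.3.3), tested two-sided by quasi-likelihood with Benjamini-Hochberg adjustment over all genes tested and a threshold of 0.05, in 5 comparisons. The fit was tested on simulated data. Predicted background is the count per kb of receptor genes times a gene's exon length. The alternatives were median-of-ratios scaling, no filter, a mean of at least 50 counts, DESeq2 1.42.0, a replicate block, protein-coding genes only, a background covariate and each library left out. The named genes were the 10 and, of the pathway list, those called and the 3 with the smallest p between niches and between LPC types; Srebf2 and Scap were added after their values were seen. Members, lists and rules were chosen with earlier results of these data known.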

Additional observations from a re-analysis of the deposited data

Results flagged for a closer look

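Dixon's criterion at the 95% level, which sets the distance of the highest or lowest of 4 libraries from its neighbour against the span of all 4, was applied to 48 sets of 4 libraries (10 genes, the background index and the total counts, by group). It marked 2 of them, where chance marks about 1 in 20. For Fads1, CNS LSK 2 stood at 15.0 CPM while the rest of CNS LSK stood at 21.1 to 21.6. For Fasn, BM LSK 2 stood at 299 CPM while the rest of BM LSK stood at 275 to 279. No gene of the 10 had all stems of LSK move against all stems of LK between niches.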

How the results depend on the processing

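No alternative called any of the 10 genes except Scd2 between LPC types without the filter (-0.29, edgeR adjusted p 0.0133). The median log2 difference of the 53366 genes fitted there was 0.15 between niches and 0.14 between LPC types. Most of those genes were outside the 18878 of the main fit, so the medians of the fits are not of like genes. Of 345 gene values under alternatives other than leaving out a library, 332 kept their direction and side of the threshold and 12 changed sign; of 800 with a library left out, 758 and 42. What changed these values was not tested.

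Sign changes without the filter were Acly in LK between niches (-0.039), Acly (-0.047), Acaca (-0.047) and Fasn (-0.036) between LPC types, and Acaca (-0.015) and Fasn (-0.0089) in the interaction. At a mean of 50 counts, which drops Scd1, they were Acly between niches (0.0091), Elovl5 in LK (0.0022) and Fads2 between LPC types (0.011). With protein-coding genes only it was Acly in LK (-0.0055), and with the background covariate Scd1 (-0.0032) and Fads2 (0.026) between LPC types.

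With 1 library left out, values that crossed 0 ranged as follows: Acly between niches -0.032 to 0.0030 and in LK -0.0039 to 0.029; Fads1 in LSK -0.16 to 0.041; Elovl5 in LK -0.039 to 0.025. Between LPC types they were Fads1 -0.11 to 0.0075, Fads2 -0.037 to 0.015, Acly -0.0079 to 0.025 and Acaca -0.0053 to 0.037. In the interaction they were Scd2 -0.045 to 0.15, Fads2 -0.086 to 0.020, Elovl5 -0.10 to 0.0015, Elovl6 -0.10 to 0.093, Acaca -0.033 to 0.054 and Fasn -0.031 to 0.050.

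Counts of all genes called between niches (0 over both LPC types, in LSK and in LK) became 85, 10 and 14 without the filter, 126, 26 and 12 with the replicate block, and 40 with DESeq2 over both. They were 0 with any library left out. Between LPC types the 45 became 290 without the filter (179 higher in LSK), 162 with the replicate block on the title number (139 higher), 9 with the background covariate, and 222 with DESeq2. Leaving out a library gave at most 138 (CNS LSK 2 left out), then 133 (BM LSK 3) and 105 (CNS LK 4). It gave 15 with CNS LK 3 left out, 18 with CNS LSK 1, 19 with BM LSK 1, 21 with CNS LSK 3, BM LK 1 or BM LK 4, 25 with CNS LK 2, 26 with BM LK 2 and 27 with CNS LK 1. The deviations of the BM and CNS libraries of a stem correlated over 0.1 in 6 of 8 stems at a mean of 10 counts and in 8 of 8 at 50, so the bar of 0.1 in every stem was met at 50 counts and missed at 10, and what a stem stands for is not given. The unpaired fit stands first, with the block values beside it; the block changed no call of the 10 genes. Depth limits Scd1 (13 to 42 counts) more than the other genes (at least 367 counts).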

Other observations

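The further Scd genes, Scd3 and Scd4, had group means above those of Scd1 and far below those of Scd2; they were picked after their values were seen, and 6.26% and 3.01% of their 50-base words also occur in another Scd gene. Scd3 stood at 1.16 ± 0.42 against 1.66 ± 0.54 CPM in LSK and 1.56 ± 0.40 against 1.89 ± 0.45 in LK (BM against CNS; SD, n = 4), with a log2 difference of 0.39 (edgeR adjusted p 0.614). Scd4 stood at 1.92 ± 0.60 against 1.99 ± 1.08 and 2.25 ± 0.53 against 2.02 ± 0.44. Within a library, Scd2 had from 149.9 to 412 times the counts of Scd1. In GENCODE M21 an opposite-strand gene shares exon bases with Srebf1 (Rai1, 109 bases) and with Elovl6 (Gm35986, 34 bases); reads there cannot be assigned without strand.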
